A study of Bos taurus with 9 samples.

Results

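In bovine rumen tissue, 379 genomic regions carried a peak of each of 2 acetylation marks of histone H3, with 1 mark called in the control library only and the other mark called after butyrate only. They were chosen by the peak calls themselves: the H3K9ac and H3K27ac peaks of both conditions on chromosomes 1 to 29 were joined into merged regions wherever they overlapped by at least 1 bp, and a region was kept when it held peaks of exactly these 2 lists. Of 46982 merged regions, 379 met the rule, a share of 0.807%. In 152 of them (0.324% of all merged regions) the H3K9ac peak was in control and the H3K27ac peak after butyrate, and these are called K9-to-K27 regions. In the other 227 (0.483%) the H3K27ac peak was in control and the H3K9ac peak after butyrate, and these are called K27-to-K9 regions. The names give only the order of conditions, with the mark called in control first. Since the 4 acetylation lists selected the regions, every value taken from those lists is a description, and only the RNA polymerase II (RNA pol II) and H3K9me3 lists and the position along the chromosomes were not used by the rule.

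The tissue came from Holstein cattle (the labels spell the breed Hostein), a dairy breed, and was taken from the rumen, the first chamber of the ruminant stomach. Control libraries stand for tissue before treatment and butyrate libraries for tissue after 24 h of butyrate. Butyrate was given by infusion and the rumen was sampled by biopsy. No genetic change distinguished the groups, and neither the age nor the number of animals behind a library was given in the labels. ChIP-seq, in which fragments bound by an antibody are sequenced, used antibodies to H3K9ac, H3K27ac, H3K9me3 and RNA pol II, in 1 library per antibody and condition, with input chromatin as a further library. For both acetylation marks the control came from lane 1 and the butyrate sample from lane 3, so effects of lane and of condition cannot be told apart for them. Lane 3 held RNA pol II of both conditions and control H3K9me3, and lane 4 held butyrate H3K9me3. With 1 library per group there was no spread between replicates, and no difference between conditions was tested. The 95% Wilson intervals below cover counting error only, and do not cover animals, biopsies or immunoprecipitations.

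Acetylation of lysines on the histone H3 tail loosens contacts with DNA and is read by proteins with bromodomains. H3K9ac, written mainly by GCN5 and PCAF, is found chiefly at active promoters, and H3K27ac, written by CBP and p300, marks active promoters and enhancers. Both are removed by histone deacetylases, which butyrate, a product of rumen fermentation and the main fuel of the rumen epithelium, inhibits. The comparison asked how often the calls of these marks, which are commonly found together, switched conditions in opposite directions at the same place. H3K9me3 marks silent heterochromatin, and RNA pol II transcribes messenger RNA.

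The lists differed in length. On chromosomes 1 to 29 there were 4075 H3K9ac peaks in control and 4255 after butyrate, against 36963 and 32763 H3K27ac peaks. The lists hold positions without scores, so a mark that is absent from a region means that no peak was called there, at a read depth that the lists do not show. The regions accounted for 3.75% (3.21 to 4.38) of the control H3K9ac peaks and 5.33% (4.70 to 6.05) of the butyrate H3K9ac peaks. Of the H3K27ac peaks they held 0.464% (0.396 to 0.544) of the butyrate list and 0.622% (0.547 to 0.708) of the control list.

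Opposite calls were about as frequent as calls in the same condition. In total 749 merged regions had each mark called in 1 condition only, and in 50.6% (47.0 to 54.2) of these the conditions were opposite. The remaining 370 (0.788% of all merged regions) had both marks in the same condition, 183 in control and 187 after butyrate. When the H3K9ac peak was in control only, the single H3K27ac peak was also in control in 183 of 335 regions, or 54.6% (49.3 to 59.9). When the H3K9ac peak was present after butyrate only, the single H3K27ac peak was in control in 227 of 414 regions, or 54.8% (50.0 to 59.6). These shares, which the rule itself draws on and which are given as a description, differed by less than their counting intervals. In the 24297 regions without H3K9ac and with H3K27ac in 1 condition, control held 58.7% (58.1 to 59.3), and the longer control list of H3K27ac stands beside all of these shares.

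**Figure D1:**
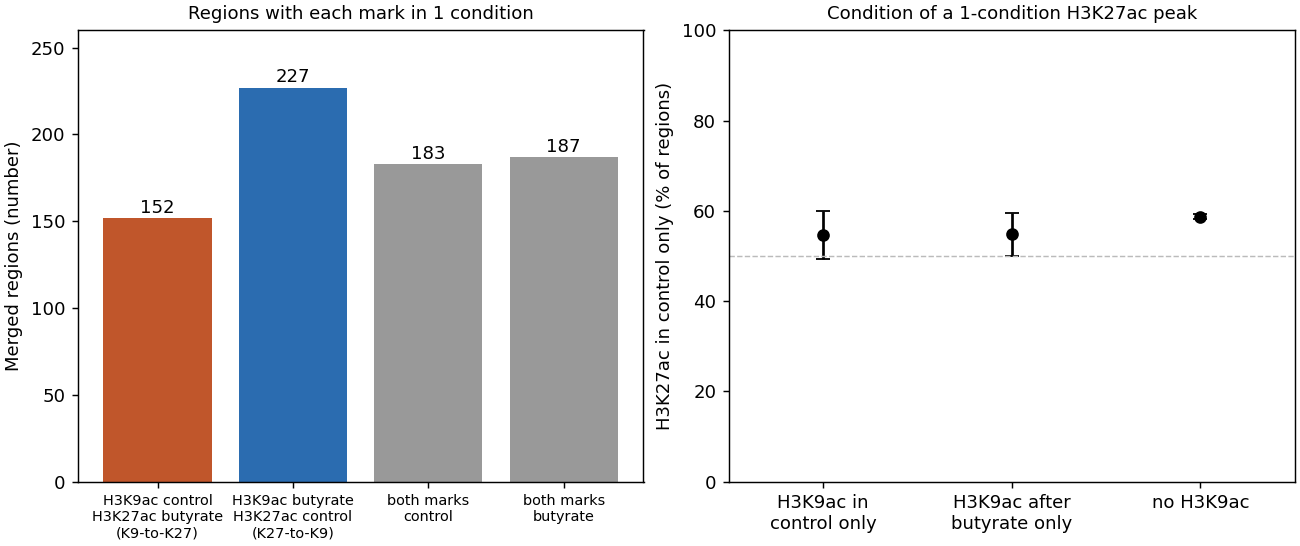
Left, the number of merged regions in each of the 4 arrangements in which H3K9ac and H3K27ac are each called in 1 condition; right, the percentage of 1-condition H3K27ac peaks that are in control, by the H3K9ac call, with 95% Wilson intervals as bars and a dashed line at 50%. The 4 counts run from 152 to 227, and the points for H3K9ac in control only (54.6%) and after butyrate only (54.8%) sit at the same height.

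Among the 379 regions, 59.9% (54.9 to 64.7) were K27-to-K9. The lists of this group were each the longer of their mark. Control H3K27ac had 36963 peaks against 32763 after butyrate, and butyrate H3K9ac had 4255 against 4075 in control. Whether list length accounts for the share was not tested, and it is not read as a preferred direction. Opposite calls were a minor fate of H3K9ac peaks that were called in 1 condition. Of 2564 regions with H3K9ac in control only, 73.4% (71.7 to 75.1) held H3K27ac in both conditions, 7.14% (6.20 to 8.20) in control only, 5.93% (5.08 to 6.91) after butyrate only and 13.5% (12.2 to 14.9) in neither. Of 2725 regions with H3K9ac after butyrate only, 70.6% (68.9 to 72.3) held H3K27ac in both conditions, 6.86% (5.97 to 7.87) after butyrate only, 8.33% (7.35 to 9.43) in control only and 14.2% (12.9 to 15.6) in neither. A lone H3K9ac call was thus mostly accompanied by H3K27ac in both conditions, and the opposite arrangement was found at a share close to that of the same-condition arrangement in both directions.

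The regions were slightly wider than merged regions in general and narrower than those with peaks of all 4 lists. The K9-to-K27 regions had a median width of 351.5 bp (226 to 751 bp) and the K27-to-K9 regions of 337 bp (200 to 887 bp), near the median of 310 bp over all merged regions. Regions with both marks in the same condition had medians of 339 bp in control and 330 bp after butyrate. The 1309 regions with peaks of all 4 lists had a median of 719 bp. Within the K9-to-K27 regions the median H3K9ac peak was 231 bp and the median H3K27ac peak 309.5 bp. The corresponding medians were 234 bp and 281.5 bp in the K27-to-K9 regions. The whole H3K9ac lists had medians of 247 bp in control and 246 bp after butyrate, above those of the regions. The whole H3K27ac lists had medians of 294 bp in control, above the K27-to-K9 value, and 302 bp after butyrate, slightly below the K9-to-K27 value. Peaks of exactly 200 bp, the smallest width in every list, made up 17.6% (12.4 to 24.5) of the H3K9ac peaks in K9-to-K27 regions against 11.6% (10.6 to 12.6) of the control list. In K27-to-K9 regions they made up 18.5% (14.0 to 24.1), against 13.1% (12.1 to 14.1) of the butyrate list. Wide H3K9ac peaks were few: 0 of 153 in K9-to-K27 regions and 1 of 227 in K27-to-K9 regions exceeded 500 bp, compared with 2.82% (2.36 to 3.38) and 2.54% (2.11 to 3.06) of the whole lists. The Wilson intervals of both groups reached up to 2.45% and overlapped those of the lists. Wide H3K27ac peaks were also less frequent than in the lists, with 12.5% (8.15 to 18.7) above 500 bp in K9-to-K27 regions against 5898 of the 32763 peaks (17.6% to 18.4%) of the butyrate list, where the intervals overlapped, and 8.26% (5.35 to 12.5) in K27-to-K9 regions against 17.3% (16.9 to 17.6) of the control list, where they did not. The same narrow widths were found where both marks were called in the same condition, with median H3K9ac peaks of 231 bp in control and 235 bp after butyrate.

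The rule joined peaks only where they overlapped by at least 1 bp, so the overlap of the marks was set in advance. The extent of overlap and the distance between midpoints are limited by the rule and the peak widths, and are given as a description. All but 4 regions held 1 peak of each mark, which gives 151 pairs in K9-to-K27 and 224 pairs in K27-to-K9 regions. In these pairs the marks shared a median of 203 bp and 204.5 bp, which covered 91.7% and 93.2% of the H3K9ac peak. The midpoints were a median of 59 bp and 42.25 bp apart. The H3K9ac peak lay wholly inside the H3K27ac peak in 38.4% (31.0 to 46.4) of K9-to-K27 pairs and in 37.5% (31.4 to 44.0) of K27-to-K9 pairs. The H3K27ac peak was the wider of the pair in 78.8% (71.6 to 84.6) and 67.0% (60.6 to 72.8), respectively. Pairs called in the same condition were arranged alike: their midpoints were a median of 54.5 bp apart in control and 46.5 bp after butyrate, and the H3K9ac peak lay inside in 39.6% (32.7 to 46.8) and 38.5% (31.8 to 45.6).

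**Figure D2:**
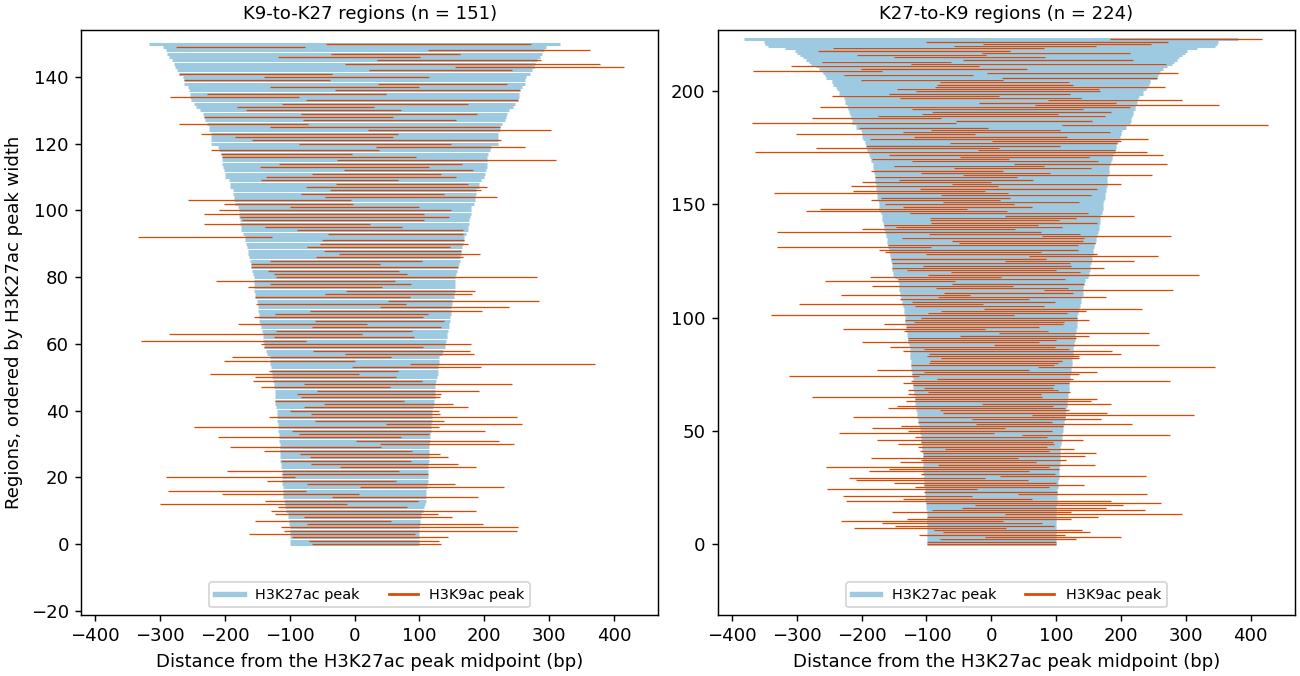
Extent of the H3K27ac peak (blue) and the H3K9ac peak (orange) in each region with 1 peak of each mark, in bp from the midpoint of the H3K27ac peak, ordered by H3K27ac width; left, 151 K9-to-K27 regions, right, 224 K27-to-K9 regions. By the rule every H3K9ac peak overlaps the H3K27ac peak, and a median of 59 bp (left) and 42.25 bp (right) lies between the midpoints.

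The widest regions show these arrangements at single places (positions on UMD3.1, both ends included). The widest K9-to-K27 region, chr3:110052594-110053344, spanned 751 bp, with a butyrate H3K27ac peak of 646 bp that met a pair of control H3K9ac peaks of 278 and 256 bp. It was the only region of this group with more than 1 peak of a mark. Next in width were chr6:23187636-23188328 with 693 bp, chr1:146557514-146558171 with 658 bp, chr16:30656009-30656663 with 655 bp and chr19:43431673-43432307 with 635 bp. In the last of these the butyrate H3K27ac peak filled the whole region and the control H3K9ac peak of 317 bp lay within it. The other regions among the 10 widest were chr6:117814390-117814980, chr10:13435242-13435821, chr20:31784229-31784802, chr3:92368790-92369359 and chr15:44474240-44474787, from 591 down to 548 bp. The H3K27ac peak was wider than the H3K9ac peak in all 10.

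In the K27-to-K9 group the widest region was chr19:50680800-50681686, at 887 bp, where control H3K27ac peaks of 243 and 544 bp were bridged by a butyrate H3K9ac peak of 417 bp. The 2 further regions with such a bridge were chr10:81104456-81104978, where the H3K9ac peak had 200 bp, and chr15:53057903-53058454, where it had 333 bp. After the widest came chr3:8417740-8418539 with 800 bp, chr5:73918729-73919429 with 701 bp, chr19:21400596-21401293 with 698 bp and chr18:35564579-35565269 with 691 bp. The list of 10 was completed by chr14:14987620-14988256, chr15:14436211-14436847, chr15:43480896-43481524, chr16:30665604-30666208 and chr22:60511292-60511896, from 637 to 605 bp. The H3K27ac peak was the wider in 9 of the 10. The exception was chr16:30665604-30666208, where the butyrate H3K9ac peak of 605 bp filled the region and was the only H3K9ac peak above 500 bp in either group.

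A peak of the list that was absent from a region often lay close by. For each region the bases between it and the nearest peak of the absent list were counted. K9-to-K27 regions lack control H3K27ac, and the nearest control H3K27ac peak was a median of 897 bp away (10 to 1269859 bp). It lay within 1 kb in 52.6% (44.7 to 60.4) of the regions and within 10 kb in 87.5% (81.3 to 91.8). K27-to-K9 regions lack butyrate H3K27ac, and the nearest such peak was a median of 1659 bp away (20 to 405258 bp), within 1 kb in 40.5% (34.4 to 47.0) and within 10 kb in 76.7% (70.7 to 81.7). In many regions, therefore, H3K27ac was called in both conditions within a short stretch, but not at the same bases.

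The distances to the absent H3K27ac list were set beside those of the other regions with H3K27ac in 1 condition. Where H3K27ac was called after butyrate only and without H3K9ac, a control H3K27ac peak was within 1 kb in 44.2% (43.2 to 45.2) of 10028 regions, and where both marks were called after butyrate only, in 49.2% (42.1 to 56.3). Where H3K27ac was called in control only and without H3K9ac, a butyrate H3K27ac peak was within 1 kb in 36.2% (35.5 to 37.0) of 14269 regions, and where both marks were in control only, in 35.0% (28.4 to 42.1). At 1 kb the intervals of the K9-to-K27 and the K27-to-K9 regions each overlapped those of the regions with the same H3K27ac call. At 10 kb the intervals of both groups lay above those of the regions without H3K9ac. Those stood at 76.7% (75.8 to 77.5) for H3K27ac after butyrate only and 68.5% (67.7 to 69.3) for control only. Both still overlapped the regions with both marks in the same condition, at 79.7% (73.3 to 84.8) after butyrate and 69.9% (62.9 to 76.1) in control. The order of the groups at 1 kb followed which H3K27ac list was absent, with the longer control list nearer than the shorter butyrate list. This order was not complete at wider cuts. Within 5000 bp, K27-to-K9 regions stood at 69.2%, above the 68.1% of regions with H3K27ac after butyrate only and without H3K9ac. At 10 kb both stood at 76.7%. All other comparisons kept the order at these cuts. Whether list length accounts for the distances was not tested.

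Peaks of the absent H3K9ac list, which is far shorter, were farther away. The nearest butyrate H3K9ac peak was a median of 61165 bp from K9-to-K27 regions, and within 1 kb in 5.92% (3.15 to 10.9). The nearest control H3K9ac peak was a median of 53858 bp from K27-to-K9 regions, and within 1 kb in 5.29% (3.05 to 9.01). Where both marks were called in the same condition, the absent H3K9ac list had a peak within 1 kb in 8.74% (5.45 to 13.7) for control and 7.49% (4.51 to 12.2) for butyrate. Neither absent list had a peak within 1 kb in 46.7% (39.0 to 54.6) of K9-to-K27 regions and 59.0% (52.5 to 65.2) of K27-to-K9 regions. With both marks in control only this share was 62.8% (55.6 to 69.5), and with both after butyrate only 50.8% (43.7 to 57.9). The most isolated K9-to-K27 region was chr24:14347494-14347819, of 326 bp, with no other acetylation peak within 1269859 bp. In the K27-to-K9 group it was chr17:15955992-15956290, of 299 bp, whose nearest acetylation peak lay 214788 bp away.

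**Figure D3:**
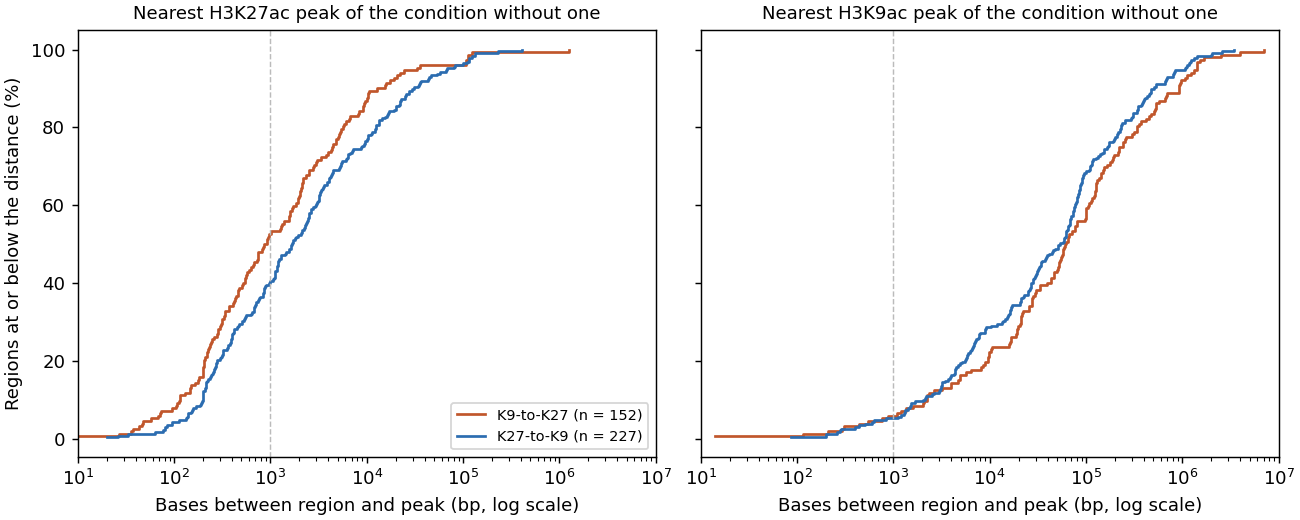
Cumulative percentage of regions by the bases between the region and the nearest peak of the list it lacks, on a log axis in bp, with a dashed line at 1 kb; left, the absent H3K27ac list, right, the absent H3K9ac list. At 1 kb the H3K27ac curves stand at 52.6% (K9-to-K27) and 40.5% (K27-to-K9) and the H3K9ac curves at 5.92% and 5.29%.

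Most regions of both groups lay near steady H3K27ac, as did most regions with both marks in the same condition. A merged region with H3K27ac in both conditions was found within 10 kb of 72.4% (64.8 to 78.9) of K9-to-K27 regions and 63.9% (57.4 to 69.8) of K27-to-K9 regions. Regions with both marks in control only had such a neighbour in 58.5% (51.2 to 65.4), and those with both marks after butyrate only in 65.8% (58.7 to 72.2). The share over all merged regions was not computed, so these values are not read as a trait of the groups. The nearest acetylation region of any kind was a median of 526.5 bp from K9-to-K27 and 847 bp from K27-to-K9 regions. In the 10 kb on either side, K9-to-K27 regions had on average 2.85 H3K27ac peaks in control and 2.55 after butyrate. K27-to-K9 regions had 2.58 and 2.30. Both groups were therefore flanked by more control than butyrate H3K27ac peaks, regardless of the condition in which the region itself was called, and the control list was also the longer. H3K9ac was sparse in the same flanks, with 0.243 control and 0.289 butyrate peaks per K9-to-K27 region and 0.374 of each per K27-to-K9 region.

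**Figure D4:**
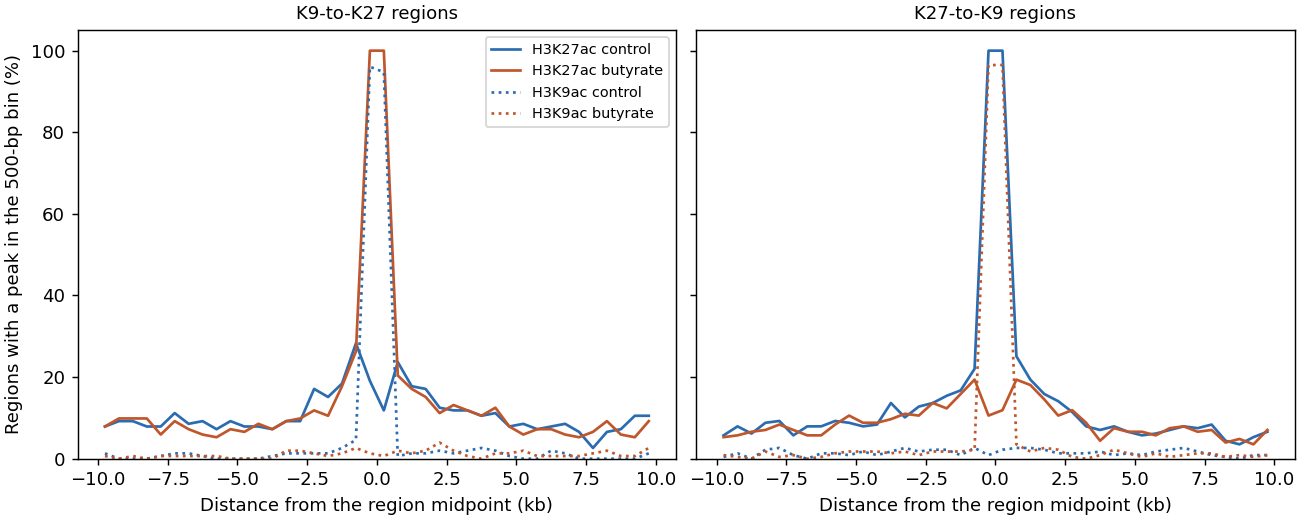
Percentage of K9-to-K27 (left) and K27-to-K9 (right) regions with a peak of each acetylation list in 500-bp bins over 10 kb on either side of the region midpoint, with control lists in blue, butyrate lists in orange, H3K27ac as solid and H3K9ac as dotted lines. The centre is fixed by the rule, and outside it the control and butyrate H3K27ac lines run close together in both groups, with 2.85 and 2.55 peaks per region (left) and 2.58 and 2.30 (right).

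RNA pol II and H3K9me3 were not part of the rule and seldom met these regions. Over all merged regions 0.602% (0.536 to 0.676) overlapped an RNA pol II peak in control and 1.03% (0.943 to 1.13) after butyrate. H3K9me3 peaks were overlapped by 0.215% (0.177 to 0.261) and 0.221% (0.183 to 0.268). Among K9-to-K27 regions, 1 of 152 (0.658%, 0.116 to 3.63) overlapped RNA pol II in control. RNA pol II after butyrate and H3K9me3 in either condition were found in 0 of 152. With 0 bounded at 3 counts, this allows a share of up to 1.97% each, and the Wilson intervals reached 2.46%. Among K27-to-K9 regions, 3 of 227 (1.32%, 0.450 to 3.81) overlapped RNA pol II in control and 6 (2.64%, 1.22 to 5.65) after butyrate, including those 3. The control H3K9me3 list met 3 (1.32%, 0.450 to 3.81) and the butyrate H3K9me3 list 2 (0.881%, 0.242 to 3.15) of them. The intervals of the groups overlapped each other for every list. Those of the K27-to-K9 regions lay above those of all merged regions for butyrate RNA pol II and control H3K9me3. They overlapped for control RNA pol II and butyrate H3K9me3. These differences rest on few regions and were not tested. The regions with both marks in the same condition had shares whose intervals overlapped those of both groups for every list. Among those in control only, 2.19% (0.853 to 5.48) overlapped butyrate RNA pol II and 1.64% (0.559 to 4.71) overlapped each of the other lists. Among those after butyrate only, 3.74% (1.82 to 7.52) overlapped butyrate RNA pol II and 1.60% (0.547 to 4.61) butyrate H3K9me3. Control RNA pol II and control H3K9me3 each met 0.535% (0.0945 to 2.97) of them, below the K27-to-K9 shares. Of K27-to-K9 regions, 1.54% overlapped butyrate RNA pol II when peaks of minimum width were left out, and 0% overlapped control H3K9me3 when only peaks no narrower than their list's median were kept. The regions with all 4 acetylation lists, which were also wider, overlapped control RNA pol II in 4.35% (3.38 to 5.60) and butyrate RNA pol II in 6.65% (5.42 to 8.13).

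The 7 regions concerned can be given singly. The K9-to-K27 region was chr16:30500177-30500478, whose control RNA pol II peak of 200 bp lay within it. Among K27-to-K9 regions, chr6:6310983-6311249 overlapped RNA pol II and H3K9me3 in both conditions, and its control H3K27ac and control H3K9me3 peaks had identical ends and the same 267 bp. The region chr23:48143289-48143584 overlapped RNA pol II after butyrate and was covered in full by H3K9me3 peaks of 506 bp in control and 500 bp after butyrate. At chr14:725693-725919 RNA pol II was called in both conditions and H3K9me3 in control. RNA pol II alone was called in both conditions at chr11:96161837-96162118, and after butyrate only at chr15:28956586-28957057 and chr24:42041643-42041943. Of the 6 K27-to-K9 regions with RNA pol II, 3 also carried a peak of the silencing mark. The same share among all merged regions with RNA pol II was not computed, so this count is not read as a trait of the group.

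The regions were spread over every chromosome from 1 to 29. Their density, per Mb up to the last peak of a chromosome, ran from 0.0638 on chromosome 24 to 0.400 on chromosome 23, with a median of 0.163. Across the 29 chromosomes it followed the density of all merged regions (Pearson's r = 0.746, Spearman's rho = 0.783), which is a description, since both counts come from the same lists. As a share of the merged regions of a chromosome, the regions ran from 0.397% on chromosome 17 to 1.44% on chromosome 27. Chromosome 3 held the most, with 15 K9-to-K27 and 13 K27-to-K9 regions. The balance of the groups varied on small counts, with 2 K9-to-K27 against 13 K27-to-K9 regions on chromosome 15, 1 against 8 on chromosome 26, and 6 against 2 on chromosome 4. Chromosomes 18, 19 and 25, the densest in acetylation regions, held 11.2% (7.10 to 17.2) of the K9-to-K27 and 10.6% (7.21 to 15.2) of the K27-to-K9 regions, against 13.9% (13.6 to 14.2) of all merged regions.

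**Figure D5:**
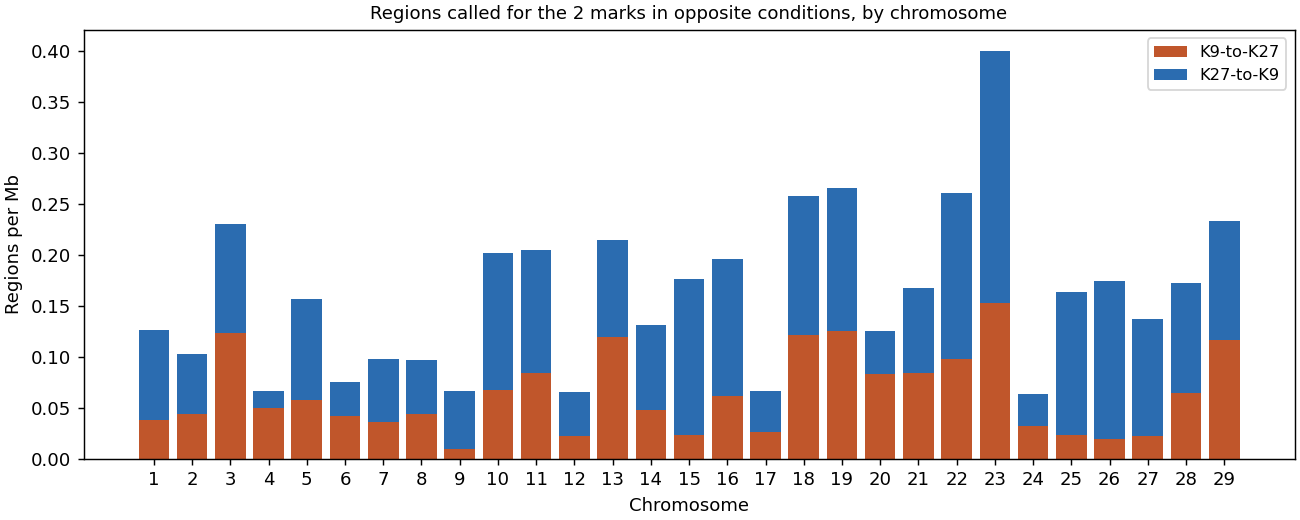
Regions per Mb on each of chromosomes 1 to 29, with K9-to-K27 regions (orange) and K27-to-K9 regions (blue) stacked. Chromosome 23 stands highest at 0.400 per Mb and chromosome 24 lowest at 0.0638, and chromosomes 15 and 26 are made up mainly of K27-to-K9 regions.

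Regions of both groups also occurred near each other. There were 27 pairs of neighbouring regions at most 100 kb apart, of which 12 joined regions of opposite groups, 9 joined K27-to-K9 regions and 6 joined K9-to-K27 regions. The mix that the group sizes of 152 K9-to-K27 and 227 K27-to-K9 regions alone would give was not computed, so these counts are a description. Of the 9 pairs within 10 kb, the closest was on chromosome 28, where the K27-to-K9 region chr28:28055259-28055479 and the K9-to-K27 region chr28:28055766-28056237 were separated by 286 bp. Each of them supplied the nearest peak of a list that the other lacked: control H3K27ac lay in the former and control H3K9ac in the latter. On chromosome 16, the regions chr16:30656009-30656663 (K9-to-K27) and chr16:30665604-30666208 (K27-to-K9), both among the 10 widest of their group, were 8940 bp apart. Opposite neighbours were also found at chr23:48039793-48040036 and chr23:48042205-48042695, 2168 bp apart, at chr11:104074297-104074839 and chr11:104078818-104079257, 3978 bp apart, and at chr13:61775075-61775304 and chr13:61780228-61780690, 4923 bp apart. By the definition of the groups, each such pair holds peaks of every acetylation list, so this is no separate result. In the pairs on chromosomes 16, 11 and 13, another acetylation region lay nearer to each member than its partner did.

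The rule has edges at the overlap of 1 bp. The smallest overlaps of the marks among members were 21 bp at chr14:23668269-23668673 in the K9-to-K27 group and 11 bp at chr1:18992513-18992947 in the K27-to-K9 group. Just outside were pairs of an H3K9ac and an H3K27ac region of opposite conditions that did not touch, the nearest 10 bp apart for the K9-to-K27 arrangement and 27 bp apart for the K27-to-K9 arrangement, with 24 and 34 such pairs within 500 bp. On the other side, the K9-to-K27 region chr7:23262964-23263372 had a peak of an absent list 10 bp away and the K27-to-K9 region chr16:74973301-74973864 had one 20 bp away. Less than 50% of the shorter peak was shared in 7.28% (4.12 to 12.6) of the K9-to-K27 pairs and 8.48% (5.50 to 12.9) of the K27-to-K9 pairs. The genes near these regions and their sequence were not analysed here, since no annotation or sequence of UMD3.1 was used.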

How the data were processed

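Peak lists of 8 ChIP-seq libraries were analysed, 1 per antibody and condition. Input chromatin (lane 5) had no list analysed here. Per the labels and methods of the study, reads of 75 nt were aligned by the authors with BWA to UMD3.1, and uniquely aligned reads with few mismatches were kept. Trim Galore 0.4.1 is named in the submitters' processing notes without its role. Peaks were called with MACS2 at default settings against the input, separately for each library. The series text calls the reads single-end and the methods paired-end. The deposited lists hold chromosome, start and end, read here as 1-based with both ends included, and no score or depth.

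Peaks of the 4 acetylation lists were merged at an overlap of at least 1 bp on chromosomes 1 to 29. Distances are the bases between regions. Shares carry Wilson 95% intervals, and 0 counts of overlap with RNA pol II or H3K9me3 are also bounded at 3 counts. The merging was tested on simulated peaks. Regions named are the 10 widest per group, those overlapping RNA pol II or H3K9me3, and the most isolated. Regions at the edges of the rule, with 3 peaks, on X or close to each other were named after their values were seen. The members and measures were chosen with earlier results of these data known. Alternatives were an overlap of 50% of the shorter peak, joining within 500 bp, leaving out peaks of minimum width, keeping only peaks no narrower than their list's median, and adding X. Python 3.11.15, numpy 2.4.6, scipy 1.17.1 and matplotlib 3.10.9 were used.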

Additional observations from a re-analysis of the deposited data

Results flagged for a closer look

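The change in RNA pol II overlap had opposite signs in the 2 groups. From control to butyrate, the share of K9-to-K27 regions with an RNA pol II peak moved by -0.658 percentage points, from 1 region to 0, and the share of K27-to-K9 regions by 1.32 percentage points, from 3 regions to 6. The opposite signs were not kept under 3 of the 5 alternatives: in K9-to-K27 regions the share went from 0.629% in control to 1.26% after butyrate when peaks had to share 50% of the shorter one and from 1.85% to 3.70% with only peaks no narrower than their list's median, and it was 0.709% in both conditions without peaks of minimum width. The difference was not tested, since there was 1 library per group, and the butyrate RNA pol II list was also the longer, with 1242 peaks against 673 on chromosomes 1 to 29.

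Regions of both kinds were also present on chromosome X, which the rule leaves out. Among 795 merged acetylation regions on X there were 4 K27-to-K9 regions and 2 K9-to-K27 regions. Of these 6, 4 overlapped a peak of every RNA pol II and H3K9me3 list, at chrX:54951661-54951958, chrX:64844833-64845232, chrX:137826719-137827035 and chrX:145979776-145980156. Of all merged regions, 3.52% (2.45 to 5.04) on X and 0.0681% (0.0483 to 0.0961) on chromosomes 1 to 29 overlapped all of these lists. On chromosomes 1 to 29, 1 K27-to-K9 region, chr6:6310983-6311249, and 0 K9-to-K27 regions did so.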

How the results depend on the processing

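Under 5 alternatives, 68 of 75 recomputed values moved by less than their counting interval or, for counts, by less than 1.5 times. The K9-to-K27 count ran from 107 to 159 and the K27-to-K9 count from 171 to 231, and the share in opposite conditions, whose alternatives were added after the data were seen, from 49.6% to 50.6%. The share of regions without a peak of an absent list within 1 kb moved most: in K9-to-K27 regions it was 80.4% when peaks within 500 bp were joined and 62.0% when peaks narrower than their list's median were left out, and in K27-to-K9 regions it was 85.9%, 75.4% and, where peaks had to share 50% of the shorter one, 52.4%. Joining takes in near peaks and the median width removes them, so a higher share is built into both. Under the median width, 3.70% of K9-to-K27 regions overlapped RNA pol II after butyrate, which turns the direction of that group's change from control, and 0% of K27-to-K9 regions overlapped H3K9me3 in control. No paired analysis was possible because there was 1 library per group. Without peak scores or read numbers, an absent call cannot be told apart from a call just missed, and width stood in for a stricter threshold.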
